A study of Mus musculus with 12 samples.

Results

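The enzymes described here degrade amino acids or move one-carbon units in liver. They are 53 mouse genes, chosen as the rows of the deposited expression table whose gene IDs match a list of symbols, out of 57180 rows in all. By pathway they fall into 5 genes of aromatic, 7 of tryptophan, 4 of histidine and 9 of serine and transaminase metabolism, 6 of glycine and its methylated forms, 9 of methionine and sulfur, 4 of lysine and proline, and 9 of branched-chain amino acid breakdown. Expression was measured in 12 libraries in 4 groups of 3, described in the design text as biological replicates. Liver of C57 mice given CCl4 (carbon tetrachloride, a chlorinated solvent toxic to hepatocytes) or vehicle was sequenced as bulk RNA. CX3CR1+ cells of dorsal skin of Cx3cr1-creER:Ai9 mice, given CCl4 or vehicle, were sequenced by smart-seq, which amplifies full-length cDNA from little RNA. In that strain the Cx3cr1 promoter drives an inducible Cre recombinase and Ai9 is a Cre-dependent red fluorescent reporter, so all skin groups carry both alleles. The design text speaks of hepatocytes and the sample labels of liver; the word liver is used below. The sources used here do not give dose, time after treatment, sex, age or the sort of the skin cells.

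Hepatocytes hold most of the body's capacity to break down amino acids. Aromatic and branched-chain carbon skeletons are oxidised towards intermediates of the citric acid cycle and ketone bodies, and tryptophan enters the kynurenine pathway, which also supplies NAD. Methionine is activated to S-adenosylmethionine, the general methyl donor, whose product homocysteine is remethylated or passed to cysteine and taurine, while glycine, serine and histidine feed one-carbon units into the folate pool.

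Values are TPM, transcript abundance per length scaled to the same total in every library, so they carry no read depth and a transcript that takes a larger part of the total lowers all others. Mitochondrially encoded genes, with 11 near-copy pseudogenes, held 25.7% to 28.4% of liver TPM with vehicle and 68.1% to 82.1% with CCl4, the lowest CCl4 value in replicate 3. Liver changes of the enzymes are therefore given in TPM as deposited and in TPM rescaled without those genes (below, the rescaled TPM). Where needed they are also given under median-ratio scaling, quantile normalization, or scaling to the sum of 10 hepatocyte markers. The median log2 change of the 10385 genes tested was -0.59 in TPM as deposited, -0.11 under median-ratio scaling, -0.15 under quantile normalization and 0.90 under hepatocyte marker scaling. It was 0.85 over the 10362 genes tested in rescaled TPM. All 10 hepatocyte markers were at 1 TPM or more in all liver libraries, and their sum was 78717 to 87994 TPM with vehicle and 15868 to 36600 TPM with CCl4. Markers of several other cells had higher sums with CCl4. The 8 liver endothelial markers summed to 22.4 to 28.3 TPM with vehicle and 138 to 431 TPM with CCl4, and the 8 Kupffer cell markers to 24.4 to 63.2 and 106 to 277 TPM. The 8 monocyte and macrophage markers summed to 7.30 to 14.4 TPM with vehicle and 93.1 to 376 TPM with CCl4, and the 8 stellate cell markers to 7.27 to 10.5 and 80.2 to 169 TPM. In this order 7, 7, 2 and 1 of 8 markers were at 1 TPM or more in every vehicle library and 8, 8, 5 and 5 in every CCl4 library, and the stellate cell marker Acta2 was listed at 0 in all vehicle libraries. The 6 neutrophil markers summed to 0.12 to 0.86 TPM with vehicle and to 109, 352 and 33 TPM with CCl4, and the 5 cholangiocyte markers to 4.24 to 6.61 and 26.7 to 57.9 TPM. The 5 red blood cell markers summed to 45.9 to 65.4 TPM with vehicle and to 14.9, 867 and 11.6 TPM with CCl4, so CCl4 replicate 2 stood apart from all other liver libraries. Sums of 5 T and natural killer cell markers overlapped between groups (0.22 to 0.58 and 0.54 to 10.1 TPM). Those of 5 keratinocyte markers were lower with CCl4 (5.93 to 7.67 and 1.75 to 5.52 TPM). In each group only 1 of these 5 was at 1 TPM or more in every library. Krt5, Krt14 and Krt1 were listed at 0 in all vehicle libraries. All these sums are in TPM as deposited, where a larger mitochondrial share lowers every other value, and were not rescaled. The part of that share in the sums was not tested. In bulk liver, fewer hepatocytes and less RNA per hepatocyte cannot be told apart, and the part of these shifts in the results below was not tested.

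With vehicle the 53 enzymes together held 14722, 14351 and 15082 TPM, 1.47% ± 0.0365 of the total (mean ± SD, n = 3). With CCl4 they held 2231, 1731 and 4632 TPM, 0.286% ± 0.155 (n = 3). The groups did not overlap. Of the TPM outside mitochondrial genes and copies, the enzymes held 2.01% ± 0.0624 with vehicle and 1.19% ± 0.292 with CCl4 (n = 3 each), again without overlap. In TPM as deposited, 51 of the 53 fell (limma on log2(TPM + 1), adjusted p under 0.05 over all genes tested), none rose, and Bckdhb and Bcat2 did not pass. Of all genes tested, 51.1% were called lower and 10.3% higher. The median change of the enzymes was -2.19. In all 53 the CCl4 libraries were below the vehicle libraries, which held for 58.8% of genes tested.

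Other scalings left fewer falls, and rescaled TPM added rises. Under median-ratio scaling 49 enzymes were called lower, against 26.2% of genes called lower and 17.7% called higher. Under quantile normalization 43 were called lower, against 24.8% lower and 17.1% higher. None was called higher under either. The calls of Acmsd, Prodh2, Bckdhb and Bcat2 were absent under both, and those of Kmo, Got2, Gpt2, Gcsh, Mccc1 and Hibadh under quantile normalization. In the fit over all 12 libraries 46 enzymes were called lower, as were 1402 of the 10385 genes tested. In rescaled TPM 24 enzymes fell and 4 rose, while 25 did not pass, and the median was -0.50, whereas 4.2% of all genes were called lower and 66.8% higher. The 24 are those called lower under all 4 of these scalings. Vehicle and CCl4 libraries did not overlap in rescaled TPM for 35 enzymes in the lower direction (6.09% of all genes) and 4 in the higher (71.5% of all genes). The count of 24 varied with single libraries: it was 37 without CCl4 replicate 3, and 13 without vehicle replicate 1 or without vehicle replicate 3. Of all 10362 genes, 627, 282 and 249 were called lower in these fits, in this order. Scaling to hepatocyte markers left 14 lower and 4 higher, against 2.5% of all genes lower and 70.9% higher. Testing deposited TPM against a minimum log2 change of 1 left 20 lower, against 3.75% of all genes.

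**Figure D1:**
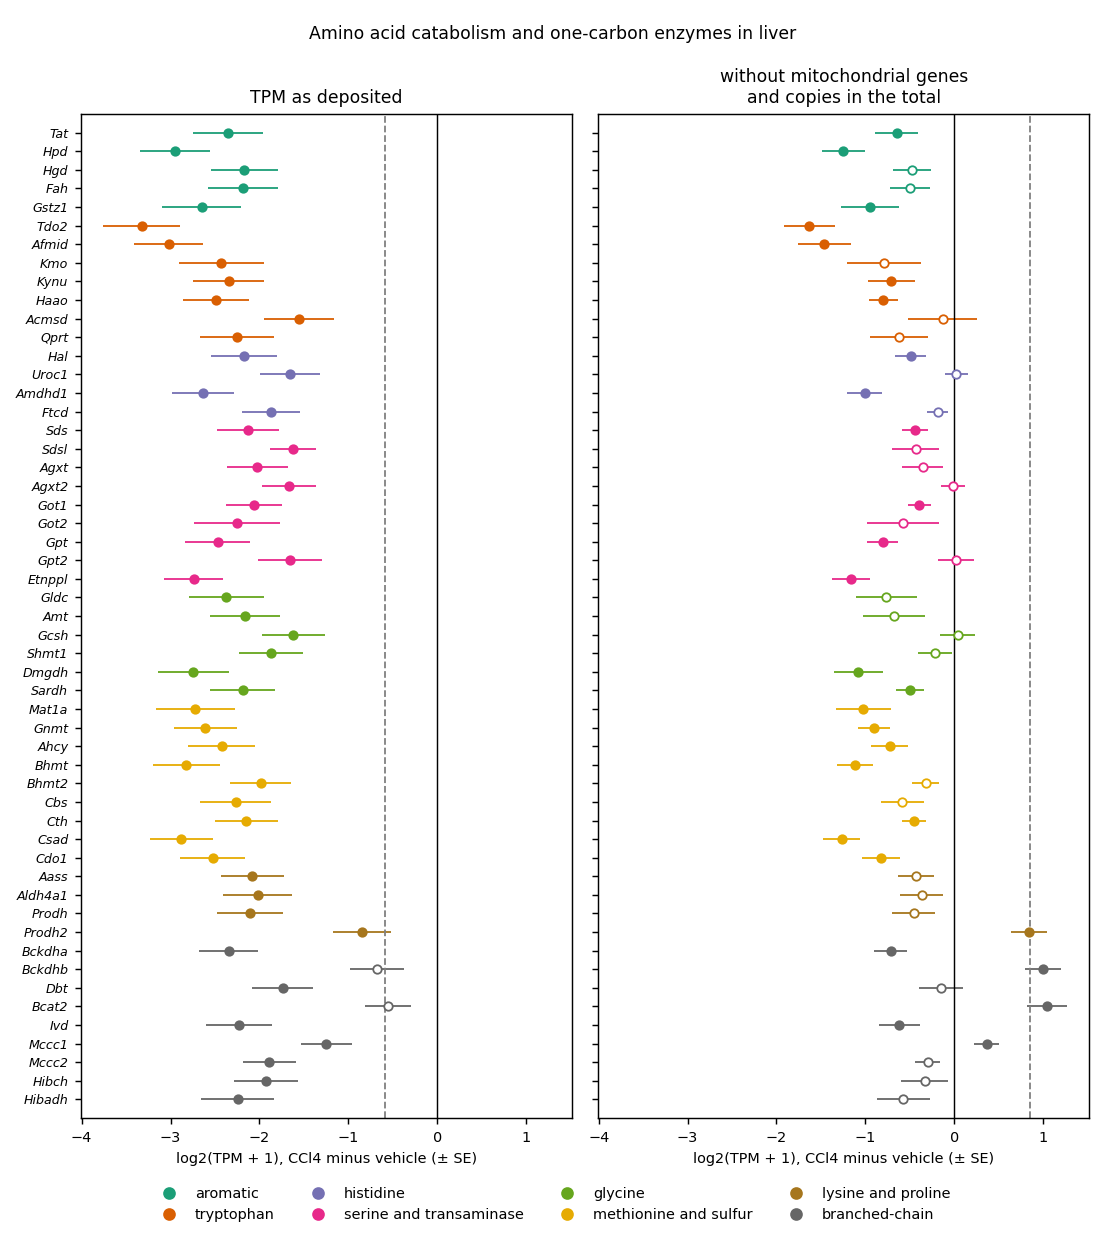
Log2 change of each of the 53 enzymes in liver, CCl4 minus vehicle on log2(TPM + 1) with its SE, in TPM as deposited (left) and in rescaled TPM (right); filled points were called, open points were not, colours mark the branch and the dashed line is the median of all genes tested. On the left all 53 lie below 0; on the right 4 called points lie above 0, of which Bckdhb and Bcat2 exceed the median of all genes.

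The CCl4 libraries differed among themselves more than the vehicle libraries did. Replicate 3 held the highest of the CCl4 values for 52 of 53 enzymes, and replicate 2 the lowest for 39. In rescaled TPM these counts were 46 and 43. The median SD of an enzyme's log2 TPM was 0.721 over the CCl4 libraries and 0.07 over the vehicle libraries, and 0.411 and 0.073 in rescaled TPM.

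Enzymes of methionine and sulfur metabolism were the most abundant of the set and had the lowest branch median. All 9 fell in deposited TPM (median -2.53), and 7 of them also in rescaled TPM (median -0.82). Bhmt (betaine-homocysteine methyltransferase, which remethylates homocysteine with a methyl group from betaine, ENSMUSG00000074768) had the highest vehicle level of the 53, at 2309.9, 2299 and 2359.6 TPM with vehicle and 282, 211 and 591 TPM with CCl4. Its log2 change was -2.82 ± 0.37 (± SE, limma adjusted p = 0.0002), and -1.12 in rescaled TPM. Gnmt (glycine N-methyltransferase, which consumes surplus S-adenosylmethionine, ENSMUSG00000002769) was at 1567, 1572 and 1656 TPM with vehicle and 230.3, 178 and 435 with CCl4, a change of -2.61 ± 0.35 and, rescaled, -0.90. Mat1a (the liver form of methionine adenosyltransferase, ENSMUSG00000037798) was at 692, 650.4 and 686 TPM with vehicle and 92.3, 53.1 and 213 with CCl4, a change of -2.72 ± 0.44 and, rescaled, -1.02. In each of these 3 the groups lay apart, and CCl4 replicate 2 was lowest and replicate 3 highest. Ahcy (hydrolysis of S-adenosylhomocysteine, ENSMUSG00000027597) was at 716, 599.5 and 698 TPM with vehicle and 110.1, 80.3 and 214 with CCl4, and changed by -2.42 and, rescaled, -0.72.

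The sulfur end of this branch showed the same separation of groups. Cdo1 (cysteine dioxygenase, the entry to taurine synthesis, ENSMUSG00000033022) was at 1077, 865 and 1012 TPM with vehicle and 158, 109 and 282 with CCl4, a change of -2.53 ± 0.37 and, rescaled, -0.82. Csad (cysteine sulfinate decarboxylase, the next step to taurine, ENSMUSG00000023044) was at 106, 74.8 and 97.5 TPM with vehicle and 8.39, 8.91 and 20.5 with CCl4. Its change of -2.88 ± 0.35 (limma adjusted p = 0.000138; -1.27 rescaled) was the largest fall of the branch. Cth (cystathionine gamma-lyase, ENSMUSG00000028179) was at 279.7, 269 and 268 TPM with vehicle and 45.5, 49.01 and 99.98 with CCl4, and changed by -2.15 and, rescaled, -0.45. The other members of the branch, the cystathionine synthase gene Cbs and the second methyltransferase gene Bhmt2, changed by -2.27 and -1.99 in deposited TPM. Neither passed in rescaled TPM, at -0.58 and -0.32. Cth and Cdo1 were among the 5 enzymes whose call was lost in the fit over all 12 libraries (limma adjusted p = 0.0584 and 0.0529), with Aldh4a1 (0.0519), Mccc1 (0.0757) and Prodh2 (0.158).

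All 7 tryptophan enzymes fell in deposited TPM (median -2.43), and 4 of them in rescaled TPM (median -0.79). Tdo2 (tryptophan dioxygenase, the first enzyme of the kynurenine pathway in hepatocytes, ENSMUSG00000028011) was at 663, 817 and 731 TPM with vehicle and 62.7, 40.3 and 150.2 TPM with CCl4. Its change of -3.32 ± 0.43 (limma adjusted p = 0.000185) was the largest of the 53, as it was in rescaled TPM at -1.63 ± 0.29. Afmid (kynurenine formamidase, the next step, ENSMUSG00000017718) came second in both, from 80.9, 56.2 and 71.6 to 6.48, 4.25 and 15.2 TPM, with changes of -3.02 ± 0.39 and -1.46 ± 0.30. Haao (hydroxyanthranilate dioxygenase, on the way to NAD, ENSMUSG00000000673) went from 321, 323 and 336 to 43.6, 42.4 and 101 TPM, a change of -2.49 and, rescaled, -0.80. Kynu (kynureninase, ENSMUSG00000026866) went from 72.3, 103 and 91.3 to 13.8, 9.83 and 32.3 TPM, a change of -2.35 and, rescaled, -0.71; in rescaled TPM its groups overlapped. Kmo (kynurenine monooxygenase), Qprt (quinolinate phosphoribosyltransferase) and Acmsd (the decarboxylase that draws the pathway away from NAD) changed by -2.43, -2.25 and -1.56 in deposited TPM. In rescaled TPM none of these 3 passed, at -0.79, -0.62 and -0.13. The call of Acmsd was also lost under median-ratio scaling (limma adjusted p = 0.061), under quantile normalization (0.0866), without a filter on low TPM (0.0562) and without CCl4 replicate 1 (0.0513), and its change was 0.07 under hepatocyte marker scaling. The call of Kmo was lost under quantile normalization (limma adjusted p = 0.0603).

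**Figure D2:**
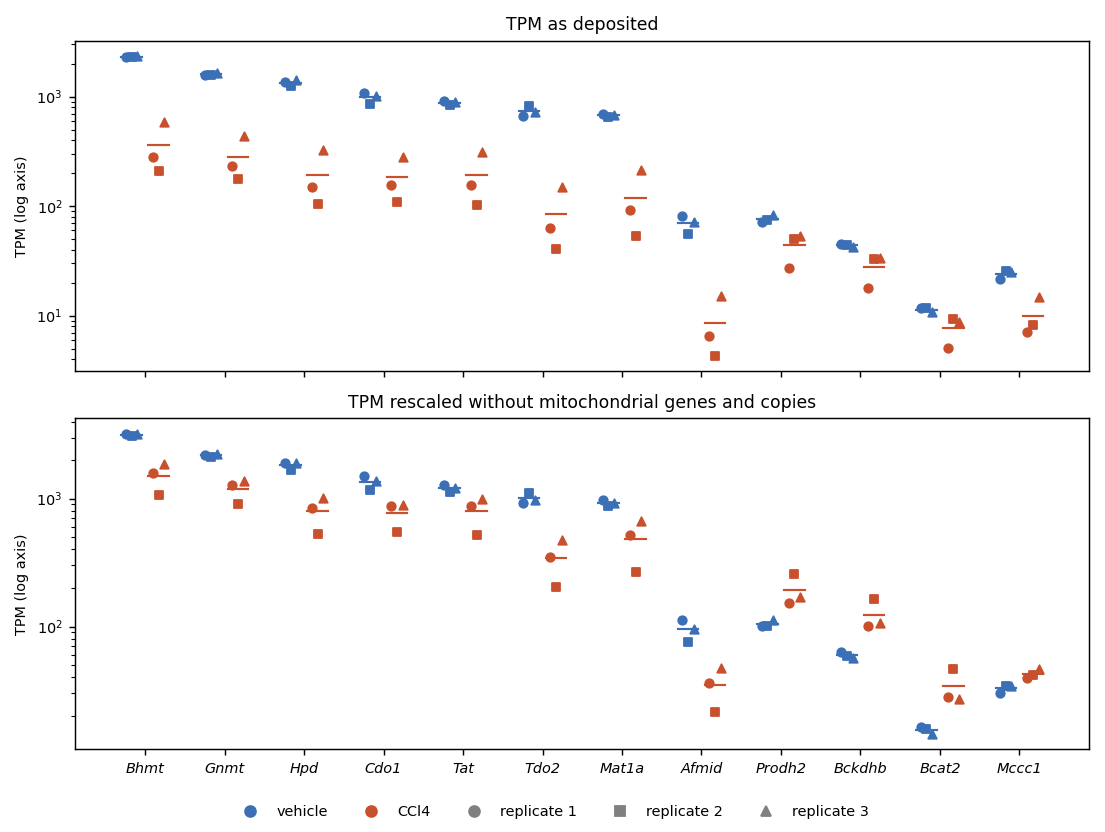
TPM of 12 enzymes in each of the 6 liver libraries on a log axis, as deposited (top) and rescaled without mitochondrial genes and copies (bottom); symbols mark the replicate number and short lines the group mean. From Bhmt to Afmid the CCl4 points lie below the vehicle points in both panels, whereas Prodh2, Bckdhb, Bcat2 and Mccc1 lie below in the top panel and above in the bottom panel.

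All 5 aromatic enzymes fell in deposited TPM (median -2.35), and 3 of them in rescaled TPM (median -0.65). Hpd (hydroxyphenylpyruvate dioxygenase, the second step of tyrosine breakdown, ENSMUSG00000029445) was at 1358, 1248 and 1413 TPM with vehicle and 151, 104 and 324 with CCl4. It changed by -2.95 ± 0.40 (limma adjusted p = 0.000223), the largest fall of the branch, and by -1.25 in rescaled TPM. Tat (tyrosine aminotransferase, the first step, ENSMUSG00000001670) was at 916, 832 and 896 TPM with vehicle and 157, 103 and 314 with CCl4, a change of -2.35 and, rescaled, -0.65. Gstz1 (maleylacetoacetate isomerase, ENSMUSG00000021033) was at 564, 551 and 566 TPM with vehicle and 85.4, 44.4 and 182 with CCl4, a change of -2.65 and, rescaled, -0.95. The groups of all 3 lay apart in both. Hgd (homogentisate dioxygenase) and Fah (fumarylacetoacetate hydrolase) changed by -2.17 and -2.19 and did not pass in rescaled TPM, at -0.48 and -0.50.

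In the glycine branch all 6 enzymes fell in deposited TPM (median -2.17), and the pair that oxidises methylated glycines also fell in rescaled TPM (branch median -0.59). Dmgdh (dimethylglycine dehydrogenase, ENSMUSG00000042102) went from 168, 192 and 178 to 24.7, 14.3 and 48.7 TPM, a change of -2.74 ± 0.40 and, rescaled, -1.08. Sardh (sarcosine dehydrogenase, ENSMUSG00000009614), the most abundant of the branch, went from 227, 229 and 245 to 34.8, 42 and 87.3 TPM, a change of -2.19 ± 0.36 and, rescaled, -0.50. Gldc, Amt and Gcsh encode the decarboxylase, the aminomethyltransferase and the lipoyl carrier protein of the glycine cleavage system, and Shmt1 the cytosolic serine hydroxymethyltransferase. They changed by -2.37, -2.16, -1.62 and -1.87 in deposited TPM. Rescaled, none of these 4 passed, and Gcsh changed sign to 0.04.

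All 9 branched-chain enzymes had lower TPM in each CCl4 library than in any vehicle library, and 7 passed (median -1.89). In rescaled TPM 2 fell, 3 rose and 4 did not pass (median -0.30). Bckdha (ENSMUSG00000060376), the alpha subunit of the decarboxylase of the branched-chain ketoacid dehydrogenase complex, which commits these amino acids to oxidation, was at 75.2, 70.2 and 77.3 TPM with vehicle and 12.2, 9.3 and 22.8 with CCl4. It changed by -2.35 ± 0.33 (limma adjusted p = 0.000285) and, rescaled, by -0.72 ± 0.18. Bckdhb (ENSMUSG00000032263), the beta subunit of the same decarboxylase, was at 45.6, 43.8 and 42.5 TPM with vehicle and 17.99, 32.6 and 33.7 with CCl4, and its change of -0.68 ± 0.31 did not pass (limma adjusted p = 0.0734; 0.0194 without CCl4 replicate 3). Rescaled, Bckdhb was at 63.7, 59.1 and 57.2 TPM with vehicle and 100.5, 165 and 106 with CCl4, and rose by 1.00 ± 0.21 (limma adjusted p = 0.00417). On that scale the alpha subunit fell and the beta subunit rose, where the median change of all genes was 0.85 and 66.8% were called higher. For comparison of these 2 subunits, the 250 bases upstream of their annotated starts are given from RefSeq (GRCm38.p6, 5′ to 3′), Bckdha at chr7:25658762-25659011, minus strand and Bckdhb at chr9:83924887-83925136, plus strand, the latter the first of 2 starts listed for Bckdhb. Of 7 short motifs searched, the Bckdha window held GCGTG and the Bckdhb window none.
Bckdha: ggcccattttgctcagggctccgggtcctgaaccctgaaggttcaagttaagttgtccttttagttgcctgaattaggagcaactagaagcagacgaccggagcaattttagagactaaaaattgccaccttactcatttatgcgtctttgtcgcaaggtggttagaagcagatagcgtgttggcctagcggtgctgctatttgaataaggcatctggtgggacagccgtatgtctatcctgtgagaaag
Bckdhb: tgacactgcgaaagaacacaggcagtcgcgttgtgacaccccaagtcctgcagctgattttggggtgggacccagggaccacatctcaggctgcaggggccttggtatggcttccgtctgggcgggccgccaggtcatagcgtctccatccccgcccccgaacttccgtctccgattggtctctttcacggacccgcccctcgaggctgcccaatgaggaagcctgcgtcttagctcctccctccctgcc

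The remaining branched-chain enzymes divided in the same way. Ivd (isovaleryl-CoA dehydrogenase of leucine breakdown, ENSMUSG00000027332) went from 57.9, 54.5 and 54.1 to 8.37, 7.16 and 21.96 TPM, a change of -2.23 and, rescaled, -0.62. Hibadh (hydroxyisobutyrate dehydrogenase of valine breakdown, ENSMUSG00000029776) had the highest level of the branch and went from 159.7, 149.8 and 163 to 31.7, 16.99 and 62.6 TPM, a change of -2.25; rescaled, -0.57 did not pass. Mccc1 (the biotin-carrying subunit of methylcrotonyl-CoA carboxylase, ENSMUSG00000027709) went from 21.6, 25.4 and 25.3 to 7.15, 8.2 and 14.7 TPM and changed by -1.25 ± 0.29, but rose by 0.36 ± 0.14 in rescaled TPM. Its partner subunit Mccc2 changed by -1.89 and was at -0.30 rescaled, which did not pass. Bcat2 (the mitochondrial branched-chain aminotransferase, ENSMUSG00000030826) was low in liver, at 11.7, 11.7 and 10.7 TPM with vehicle and 5.04, 9.23 and 8.68 with CCl4. Its change of -0.55 ± 0.26 did not pass (limma adjusted p = 0.0798; 0.0445 without CCl4 replicate 2 and 0.0403 without CCl4 replicate 3), and in rescaled TPM it rose by 1.04 ± 0.22. The median change of all genes in rescaled TPM was 0.85, above that of Mccc1 and below that of Bcat2. Bcat2 shares 249 exonic bases with the antisense gene 0610005C13Rik, which was at 86.1, 70.7 and 77.8 TPM with vehicle and 15.1, 9.56 and 28.3 with CCl4, so the split of reads between them is uncertain. Dbt (the transacylase of the ketoacid dehydrogenase) and Hibch (hydroxyisobutyryl-CoA hydrolase) changed by -1.74 and -1.93 and were at -0.15 and -0.33 rescaled, which did not pass.

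In the smaller branches, 4 of 9 serine and transaminase enzymes, 2 of 4 histidine enzymes and 0 of 4 lysine and proline enzymes fell under all 4 scalings, although all 17 fell in deposited TPM (medians -2.06, -2.02 and -2.05; rescaled -0.43, -0.34 and -0.40). Etnppl (ethanolamine-phosphate phospho-lyase, ENSMUSG00000019232) went from 62.8, 58.5 and 61.7 to 7.5, 5.16 and 14.3 TPM, a change of -2.74 ± 0.33 (limma adjusted p = 0.000131) and, rescaled, -1.16. Gpt (cytosolic alanine aminotransferase, ENSMUSG00000022546) went from 143, 148 and 149 to 18.6, 19.3 and 46.5 TPM, a change of -2.47 and, rescaled, -0.80. Sds (serine dehydratase, ENSMUSG00000029597) went from 178, 215 and 208 to 36.9, 34.1 and 71.8 TPM, a change of -2.13 and, rescaled, -0.44. Got1 (cytosolic aspartate aminotransferase, ENSMUSG00000025190) went from 131, 111 and 129 to 23.9, 23.6 and 41.96 TPM, a change of -2.06 and, rescaled, -0.39. All 4 act in the serine and transaminase branch, and in each the groups lay apart on both scales. Got2 (the mitochondrial form, ENSMUSG00000031672), the most abundant of that branch, went from 200.3, 211 and 219 to 46.7, 18.1 and 93.4 TPM, a change of -2.25; rescaled, -0.58 did not pass and its groups overlapped. Agxt (alanine-glyoxylate aminotransferase), Agxt2, Gpt2 (mitochondrial alanine aminotransferase) and Sdsl (serine dehydratase-like) changed by -2.02, -1.67, -1.65 and -1.62, and were at -0.35, -0.02, 0.02 and -0.43 rescaled, where none passed.

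Histidine breakdown runs from Hal (histidine ammonia-lyase) through Uroc1 (urocanate hydratase) and Amdhd1 (imidazolonepropionase) to Ftcd, which hands a formimino group to folate. Hal (ENSMUSG00000020017) went from 180, 162 and 177 to 24.6, 32.3 and 66.7 TPM, a change of -2.17 and, rescaled, -0.49. Amdhd1 (ENSMUSG00000015890) went from 85.7, 81.8 and 90.2 to 10.9, 8.56 and 23.2 TPM, a change of -2.63 ± 0.35 and, rescaled, -1.01. Uroc1 and Ftcd, the second and the last step, changed by -1.66 and -1.87 and were at 0.02 and -0.19 rescaled, which did not pass. In the lysine and proline branch, Aldh4a1 (the dehydrogenase that completes proline oxidation to glutamate, ENSMUSG00000028737) had the highest level and went from 83.02, 85.95 and 85.9 to 16.96, 12.2 and 39.1 TPM, a change of -2.02; rescaled, -0.37 did not pass. Aass (the first enzyme of the saccharopine route of lysine) and Prodh (proline dehydrogenase) changed by -2.08 and -2.10, and were at -0.43 and -0.46 rescaled, which did not pass.

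Prodh2 (hydroxyproline dehydrogenase, which starts the breakdown of hydroxyproline, ENSMUSG00000036892) stood apart from Prodh. It went from 72.2, 75 and 83.2 to 27.4, 50.6 and 53.8 TPM, a change of -0.85 ± 0.32 (limma adjusted p = 0.04). Rescaled, it was at 101, 101 and 112 TPM with vehicle and 153, 256 and 169 with CCl4, and rose by 0.84 ± 0.21 (limma adjusted p = 0.00846), close to the median of all genes on that scale, 0.85. Its fall in deposited TPM was lost under median-ratio scaling (-0.24), without a filter on low TPM, in the fit over all 12 libraries, and without CCl4 replicate 1 or any 1 vehicle library, and under quantile normalization its change was 0.37.

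**Figure D3:**
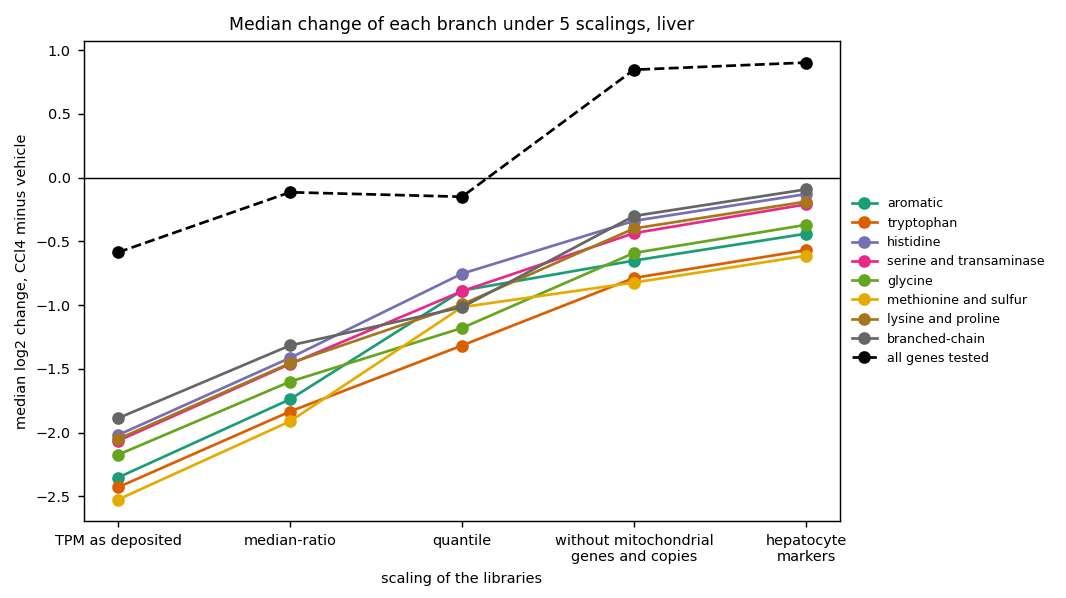
Median log2 change of the enzymes of each branch, and of all genes tested (dashed), in liver under 5 scalings of the libraries. Every branch median lies below 0 and below the median of all genes under each scaling, from -2.53 (methionine and sulfur, TPM as deposited) to -0.09 (branched-chain, hepatocyte markers).

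The order of the branches was not the same under every scaling. In deposited TPM and in rescaled TPM, medians ran from methionine and sulfur through tryptophan and aromatic to glycine, with branched-chain the least negative of all 8 branches. Under quantile normalization tryptophan was lowest (-1.32), followed by glycine (-1.18), branched-chain and methionine and sulfur (both -1.02), lysine and proline (-0.99), serine and transaminase and aromatic (both -0.89) and histidine (-0.75). These medians describe lists and carry no test. As shares of the summed TPM of the 53 enzymes, methionine and sulfur enzymes held 47.1% ± 0.746 with vehicle and 43.0% ± 0.900 with CCl4, and tryptophan enzymes 9.67% ± 0.761 and 7.41% ± 0.856. Branched-chain enzymes held 3.19% ± 0.0643 and 5.02% ± 0.674, and glycine enzymes 4.34% ± 0.0907 and 5.07% ± 0.342. Lysine and proline enzymes held 2.22% ± 0.0854 and 4.02% ± 1.32, and histidine enzymes 3.48% ± 0.0208 and 4.79% ± 1.05. Serine and transaminase enzymes held 6.93% ± 0.204 and 8.84% ± 0.379. Aromatic enzymes held 23.1% ± 0.367 and 21.8% ± 2.03 (mean ± SD, n = 3 for all shares). The groups overlapped for the aromatic share and for none of the others.

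A comparison within the set does not depend on the total. Relative to the geometric mean of the 53 in each library, 10 were called lower, against 1.38% of all genes: Hpd, Tdo2, Afmid, Amdhd1, Etnppl, Dmgdh, Mat1a, Gnmt, Bhmt and Csad. They ranged from -0.39 (Gnmt) to -1.11 (Tdo2). Called higher were 7, against 78.4% of all genes: Uroc1, Gpt2, Gcsh, Mccc1, Prodh2, Bcat2 and Bckdhb, from 0.52 (Gpt2) to 1.48 (Bckdhb). The first count was 4 without vehicle replicate 1, 6 without vehicle replicate 2 and 4 without vehicle replicate 3, where 99, 100 and 88 of 10385 genes were called lower. The second was 4 without vehicle replicate 1 or 3, where 6271 and 6223 genes were called higher. This scale was added after the data had been seen. It centres the 53 by construction, so values on both sides of 0 follow from it. Their median was 0.01 on it, and that of all genes tested was 1.145, a shift that the shares of all genes carry. The counts therefore describe the order of the enzymes within the set.

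Ratios of 2 transcripts in the same library likewise need no scaling, and 13 of 15 pairs could be formed. Of these, 9 did not overlap between groups, among them every pair of subunits, which were chosen after their values had been seen. The 9 of 13 is therefore a description, and no such share over other pairs of genes was computed. Each of the 9 had an exact permutation p of 0.1, the smallest that 3 libraries against 3 allow, and an adjusted p of 0.144 over the 13, so none could pass. Mat1a to Mat2a, the liver and the general form of methionine adenosyltransferase, stood at 35.9, 26.9 and 27.7 with vehicle and 6.18, 2.47 and 9.62 with CCl4, a log2 change of -2.50. Mat2a itself was at 19.3, 24.2 and 24.8 TPM with vehicle and 14.9, 21.5 and 22.2 with CCl4. Bhmt to Bhmt2 stood at 23.8, 23.8 and 23.9 with vehicle and 14.9, 11.97 and 14.6 with CCl4. Gpt to Gpt2, the cytosolic and the mitochondrial alanine aminotransferase, stood at 1.52, 1.59 and 1.51 and 0.739, 0.996 and 0.887. Prodh2 to Prodh moved the other way, from 0.89, 0.958 and 1.02 to 2.87, 2.47 and 1.86. The ratios Shmt1 to Shmt2, Got1 to Got2, Agxt to Agxt2 and Sds to Sdsl overlapped between groups.

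Subunits of the same complex were paired after their values had been seen. Bckdha to Bckdhb stood at 1.65, 1.603 and 1.82 with vehicle and 0.678, 0.285 and 0.676 with CCl4, a log2 change of -1.73, so the alpha transcript went from more to less abundant than the beta transcript. Dbt to Bckdhb changed by -1.16 on the log2 scale. Mccc2 to Mccc1 stood at 1.501, 1.34 and 1.33 with vehicle and 0.933, 0.772 and 0.904 with CCl4. In the glycine cleavage system, Gldc to Gcsh stood at 1.04, 1.04 and 1.01 with vehicle and 0.649, 0.43 and 0.716 with CCl4, and Amt to Gcsh changed by -0.75. The groups did not overlap in any of these 5, and in the pairs with Bckdhb or Gcsh CCl4 replicate 2 was lowest.

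**Figure D4:**
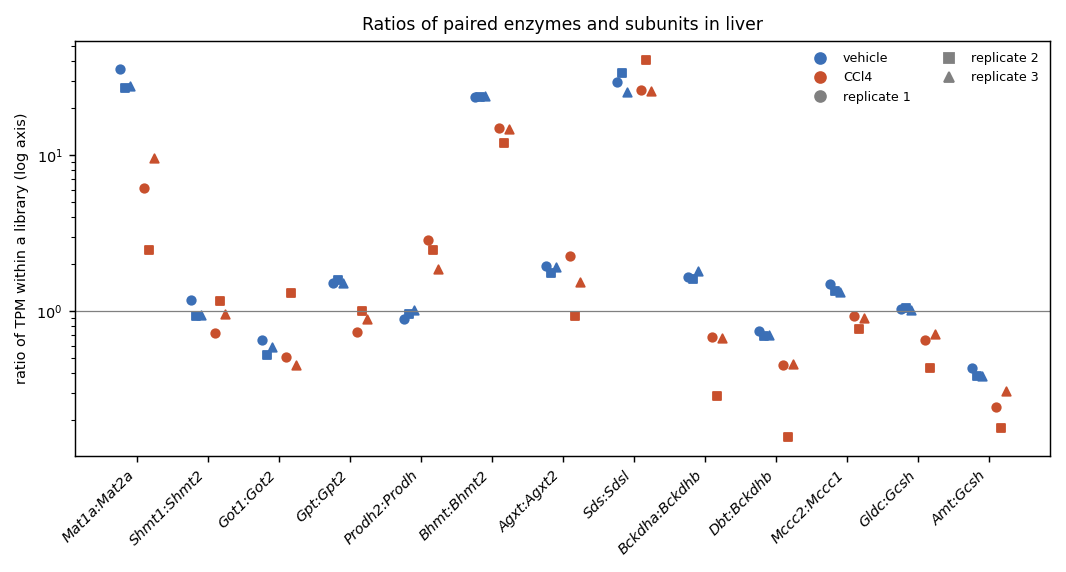
Ratio of the TPM of 2 enzymes or subunits within each liver library, on a log axis, with blue for vehicle and red for CCl4 and symbols for the replicate number. The groups lie apart for 9 of the 13 ratios, 8 of them lower with CCl4 and Prodh2:Prodh higher. The subunit pairs, from Bckdha:Bckdhb to Amt:Gcsh, are among the 9 and were chosen after their values had been seen.

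The upstream bases of Tdo2, the enzyme with the largest fall, and of Prodh2, the most abundant of the 4 that rose in rescaled TPM, are given next (RefSeq, GRCm38.p6, 250 bases, 5′ to 3′). Tdo2 lies at chr3:81975729-81975978, minus strand, and Prodh2 at chr7:30493408-30493657, plus strand. Capitals mark TATAAA in Tdo2, and in Prodh2 matches on the reverse strand to TTGCNNAA (a C/EBP motif) and GTTAATNAT (an HNF1 motif, for the hepatocyte factor of that name).
Tdo2: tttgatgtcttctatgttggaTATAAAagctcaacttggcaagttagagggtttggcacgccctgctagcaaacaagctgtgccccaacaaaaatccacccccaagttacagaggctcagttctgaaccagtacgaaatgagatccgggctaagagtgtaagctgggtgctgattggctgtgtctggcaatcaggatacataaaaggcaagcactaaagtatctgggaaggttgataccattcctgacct
Prodh2: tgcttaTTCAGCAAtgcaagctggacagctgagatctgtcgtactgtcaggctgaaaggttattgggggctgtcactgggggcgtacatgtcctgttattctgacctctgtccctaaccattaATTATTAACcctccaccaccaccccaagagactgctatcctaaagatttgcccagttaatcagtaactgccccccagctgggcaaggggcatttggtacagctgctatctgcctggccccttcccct

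Of the 53 enzymes 45 had an entry in that table, with 51 starts. In these 250 bases, searched on both strands, GTTAATNAT was before 2 of the 51 starts, those of Got2 and Prodh2, and in 0.737% of all 32851 entries. CAAAGTCCA (HNF4) was before 2 starts of a single gene, Agxt2, and in 0.384% of all. Such small counts describe these genes and no difference from other promoters. TTGCNNAA was before 4 starts (7.84%, against 9.56% of all), TATAAA before 7 (13.7% and 12.4%), TGATGNAA (ATF4) before 1 (1.96% and 3.45%), CACGTG (E-box) before 2 (3.92% and 6.02%) and GCGTG (AHR) before 17 (33.3% and 28.2%). A match describes letters and is no evidence of binding. GCGTG, which the Tdo2 and Bckdha windows hold, is not put in capitals.

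Of 87 other genes of the same pathways 76 were tested in liver: in deposited TPM 61 fell and 5 rose, with 10 that did not pass, and the median was -1.80. Of all genes tested, 51.1% fell and 10.3% rose. In rescaled TPM 20 fell and 19 rose (median -0.26), against 4.2% and 66.8% of all genes. The 5 that rose in deposited TPM were Gatm, Psat1, Asns, Aldh18a1 and Hdc. All 5 met the filter of 1 TPM in 3 libraries only through the CCl4 libraries, since at most 1 vehicle library of each reached 1 TPM, so that a rise follows in part from the filter and their values are a description. With a filter at a TPM of 5 and in the fit over all 12 libraries, 1 gene each was called higher. Over all genes tested, those settings called 321 of 5702 and 334 of 10385 higher. Gatm (the first enzyme of creatine synthesis, from arginine and glycine) was at 1.17, 0.94 and 0.67 TPM with vehicle and 10.5, 24.8 and 7.71 with CCl4, a rise of 2.84 ± 0.34. Psat1 (phosphoserine aminotransferase of serine synthesis) was at 0.2, 0.32 and 0.28 TPM with vehicle and 4.47, 2.31 and 5.18 with CCl4, a rise of 1.93 ± 0.23. Asns (asparagine synthetase) was at 0.75, 0.71 and 0.72 and 5.16, 2.14 and 3.65 TPM, a rise of 1.38. Aldh18a1 (the entry to proline synthesis) was at 0.08, 0.2 and 0.17 and 1.14, 1.26 and 1.19 TPM, a rise of 0.93. Hdc (histidine decarboxylase, which makes histamine) was at 0.97, 0.36 and 0.97 and 4.31, 8 and 2.43 TPM, a rise of 1.65; it is named to complete the 5, after its values were seen.

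The lowest p-values among the falls belonged to Oat (ornithine aminotransferase), Ppm1k (the phosphatase that activates the branched-chain ketoacid dehydrogenase), Hykk (hydroxylysine kinase) and Mmab (the adenosyltransferase that makes the cofactor of methylmalonyl-CoA mutase). Oat was at 140.5, 172 and 152.5 TPM with vehicle and 7.4, 7.47 and 6.75 with CCl4, and Ppm1k at 12.3, 15.9 and 14.2 and 2.31, 2.19 and 3.23 TPM. Hykk was at 6.5, 12.6 and 8.51 TPM with vehicle and 1, 0.81 and 1.94 with CCl4, and Mmab at 7.47, 6.92 and 8.02 and 1.3, 1.03 and 2.61 TPM. They changed by -4.24 ± 0.26, -2.09 ± 0.22, -2.17 ± 0.26 and -1.72 ± 0.24. Rescaled, they were at -2.67, -0.71, -1.08 and -0.52, and all 4 stayed called lower. Hykk reached 1 TPM in 3 vehicle and 2 CCl4 libraries, so it met the filter through the vehicle libraries. With Hykk, 5 tested pathway genes met it in this way. A fall of such a gene follows in part from the filter, and the values of Hykk are a description. Bckdk, the kinase that opposes Ppm1k and was picked after its values were seen, changed by -0.46 in deposited TPM and by 0.82 rescaled, with opposite calls. Both values are close to the median change of all genes tested, -0.59 in deposited TPM and 0.85 rescaled. By branch, all 16 tested branched-chain genes and all 5 aromatic and 5 tryptophan genes fell in deposited TPM. Of the 14 methionine and sulfur genes 10 fell and of the 15 glycine genes 11 fell and 1 rose.

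**Figure D5:**
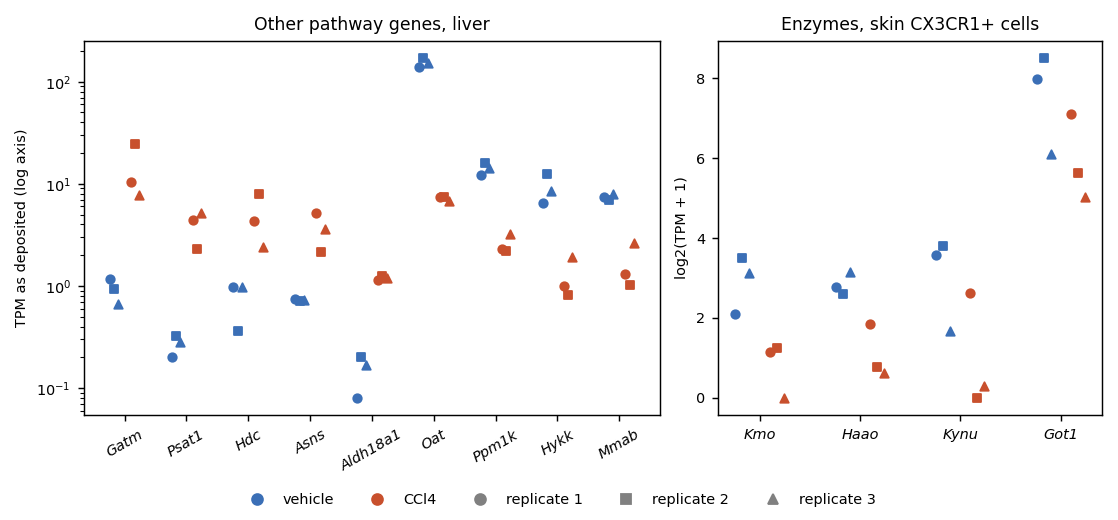
Left, TPM of 9 other pathway genes in each liver library on a log axis; right, log2(TPM + 1) of 4 enzymes in each library of skin CX3CR1+ cells; blue is vehicle, red is CCl4 and symbols mark the replicate number. In liver the first 5 genes are higher and the last 4 lower with CCl4; in skin the CCl4 points of Kmo and Haao lie below the vehicle points, while those of Kynu and Got1 overlap them.

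In skin CX3CR1+ cells most of the set was low. With vehicle 51 of the 53 enzymes were higher in liver than in skin in every library, Bcat2 was higher in skin, and Got1 overlapped. Of 12864 genes at 1 TPM or more in 3 of these 6 libraries, 16.1% were higher in every liver library and 54.1% in every skin library. Tissue, strain and assay cannot be told apart in these levels. Bcat2 was at 35.7, 35.1 and 52.2 TPM with vehicle in skin. Got1 was the most abundant enzyme there, at 251, 363 and 68.2 TPM, followed by Hibadh at 71.7, 46.2 and 29.3 TPM and Gcsh at 53.3, 61.8 and 27.6 TPM. Tat and Ftcd were listed at 0 in all 6 skin libraries.

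Of the 30 enzymes that passed the filter on low TPM in skin, limma called none, as it called 0% of the 13767 genes tested. An unadjusted p under 0.05 was given to 3 of the 30, and to 2.09% of all genes. All 3 belong to the kynurenine pathway. Kmo was at 3.32, 10.3 and 7.68 TPM with vehicle and 1.2, 1.38 and 0 with CCl4, a log2 difference of -2.11 ± 0.64. Haao was at 5.79, 5.11 and 7.87 TPM with vehicle and 2.62, 0.72 and 0.55 with CCl4, a difference of -1.75 ± 0.60. For both the groups did not overlap. Kynu was at 10.9, 12.8 and 2.17 TPM with vehicle and 5.18, 0 and 0.24 with CCl4, a difference of -2.03 ± 0.88, with overlap. Got1, next by p, was at 137, 48.5 and 31.3 TPM with CCl4, a difference of -1.62 ± 0.80, with overlap. Every one of these had a limma adjusted p of 0.9999. The summed TPM of 5 Langerhans and dendritic cell markers was 13781 to 16950 with vehicle, where 5 of 5 were at 1 TPM or more in every library. It was 10109, 4804 and 135 with CCl4, where 3 of 5 were. The summed TPM of 6 skin macrophage markers was 945 to 3481 with vehicle and 914, 1018 and 89.5 with CCl4. Keratinocyte markers, 5 of 5 at 1 TPM or more in every skin library, summed to 830 to 1966 TPM with vehicle and 1876, 1873 and 357 with CCl4. Each of these sums was lowest in CCl4 replicate 3, as were Kmo, Haao and Got1, whereas Kynu was lowest in CCl4 replicate 2. The part of these markers in the skin values was not tested.

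The effect of CCl4 was compared between tissues for the 30 enzymes that passed the filter in both. Limma called none of them different, and 0.216% of the 9255 genes tested. Without adjustment 20 of the 30 had a p under 0.05, as did 20.2% of all genes. These effects are in deposited TPM. Mitochondrial genes and copies held on average 26.7% with vehicle and 76.8% with CCl4 in liver, and 3.49% and 2.70% in skin. The median of this contrast over all genes tested was -0.54 in deposited TPM. In rescaled TPM it was 0.91, with 543 of 9237 genes called higher and 5 lower. The part of the mitochondrial share in the values below was not tested. The largest support was for Bckdha, whose effect in liver minus that in skin was -3.01 ± 0.59 (limma adjusted p = 0.0598), followed by Csad at -3.30 ± 0.74 (0.0701) and Hal at -3.37 ± 0.82 (0.0791). Bckdha was at 18.8, 10.4 and 24.6 TPM in skin with vehicle and 23.3, 28.4 and 30.97 with CCl4. The number called was 7 without liver CCl4 replicate 3, 2 without skin CCl4 replicate 1 and 4 without skin vehicle replicate 3. Of all 9255 genes, 67, 132 and 179 were called higher and 166, 190 and 240 lower in these fits, in this order. The number of enzymes was 2 with a pseudocount of 0.1 and 1 under median-ratio scaling. Those settings called 127 and 165 of all genes higher and 49 and 41 lower.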

How the data were processed

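Poly(A) RNA was sequenced from 6 liver and 6 skin CX3CR1+ cell libraries in 4 groups of 3, grouped by the sample titles. The authors deposited 1 table of TPM for 57180 genes, for which the submitters' processing notes name GRCm39, fastp, HISAT2, StringTie and RSEM without versions or roles. The labels' protocol (TRIzol, oligo(dT) selection, Illumina Stranded mRNA Prep) is given for all 12 libraries and does not describe smart-seq. TPM holds no depth, so depth is unknown and no counting interval or floor is given; a gene at 0 is said to be listed at 0. Gene symbols came from name tables for 51884 IDs.

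Values were tested as log2(TPM + 1), a scale that understates changes of low genes, with limma 3.58.1 (R 4.3.3; eBayes with trend, two-sided). Tested genes reached a TPM of 1 in 3 or more of a tissue's 6 libraries, and calls used a Benjamini-Hochberg adjusted p under 0.05 over all genes tested. Tissues were fitted apart; effects were compared in 1 model of 4 group means. All 53 enzymes passed in liver, 52 of them at 1 TPM or more in all 6 libraries and Sdsl in 5. Those 5 were 3 vehicle and 2 CCl4 libraries, so the fall of Sdsl follows in part from the filter. Pseudogenes were taken as mitochondrial near copies at 95% identity over 80% of their length. Of the enzymes 15 share at least 200 bases at 95% identity with another gene; beside the antisense gene named with Bcat2, near copies of Ahcy, Bhmt and Got2 were near 0 TPM, Gldc shares a 200-base stretch with Ppm1k, and Sds one with Plbd2. The script was tested on simulated data.

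Members and lists were chosen with earlier results of these data known. Values per library are given for the most abundant enzyme of each branch, for enzymes called the same way under 4 scalings and for those that rose; of the other pathway genes, for the 4 lowest p in each direction and the 1 other rise, and in skin for the 4 lowest p. Alternatives were other pseudocounts, filters, scalings, a replicate block, a fit over all 12 libraries, robust eBayes, a minimum log2 change of 1, and each library left out.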

Additional observations from a re-analysis of the deposited data

How the results depend on the processing

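TPM as deposited kept the direction of all 53 enzymes under both other pseudocounts, both other filters, median-ratio scaling, the fit over all 12 libraries, robust eBayes and each library left out, and 13 enzymes kept direction and call under every alternative. The number of enzymes called lower was 51, with 49 to 53 over the libraries left out, and 0 were called higher in each. Of the 10385 genes tested, 3907 to 6502 were called lower over the libraries left out. The number of enzymes was 24 lower and 4 higher in TPM rescaled without mitochondrial genes and copies, 14 and 4 with scaling to hepatocyte markers, and 20 lower with a minimum log2 change of 1. The change of Prodh2 turned to 0.37, that of Bckdhb to 0.36 and that of Bcat2 to 0.0939 under quantile normalization. Without mitochondrial genes and copies, Uroc1 was at 0.0235, Gpt2 at 0.0179, Gcsh at 0.0383, Prodh2 at 0.84, Bckdhb at 1.00, Bcat2 at 1.04 and Mccc1 at 0.36. With hepatocyte marker scaling, Acmsd was at 0.0674, Uroc1 at 0.23, Ftcd at 0.0224, Agxt2 at 0.19, Gpt2 at 0.22, Gcsh at 0.24, Prodh2 at 1.04, Bckdhb at 1.18, Dbt at 0.0538, Bcat2 at 1.17 and Mccc1 at 0.55.

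Branch medians under quantile normalization, without mitochondrial genes and copies, and with hepatocyte marker scaling were -0.89, -0.65 and -0.44 for aromatic, -1.32, -0.79 and -0.57 for tryptophan, and -1.02, -0.82 and -0.61 for methionine and sulfur enzymes. They were -1.18, -0.59 and -0.37 for glycine and -1.02, -0.30 and -0.0918 for branched-chain enzymes, whose median was -1.32 under median-ratio scaling. Over the libraries left out the medians ran from -2.79 to -1.98 (aromatic), -2.90 to -2.001 (tryptophan), -2.89 to -2.21 (methionine and sulfur), -2.63 to -1.83 (glycine) and -2.20 to -1.57 (branched-chain). Of the other pathway genes 5 were called higher and 61 lower. The higher count was 8 without a filter, 1 with a filter at a TPM of 5 and 19 without mitochondrial genes and copies. It was 20 with hepatocyte marker scaling, 1 in the fit over all 12 libraries and 2 with a minimum log2 change of 1. Of all genes, these settings called 2007 of 24989, 321 of 5702, 6922 of 10362, and 7360, 334 and 311 of 10385 higher, in this order. The lower count of pathway genes was 20, 5 and 18 without mitochondrial genes and copies, with hepatocyte marker scaling and with the minimum change. Of all genes, 435, 260 and 389 were called lower there. The scalings differ by construction in what they hold constant; for the other settings the cause was not tested.

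In rescaled TPM, 13 to 37 enzymes were called lower and 3 to 4 higher over the libraries left out. Relative to the geometric mean of the enzymes these ranges were 4 to 12 and 4 to 10. Of all genes, 249 to 627 were called lower and 5712 to 7080 higher in rescaled TPM over the libraries left out. On the scale of the geometric mean, 88 to 201 were called lower and 6223 to 8796 higher. Leaving out a library leaves 2 in its group. In skin 0 enzymes were called under every alternative run. Enzymes whose effect differed between tissues numbered 0, with 2 at a pseudocount of 0.1, 1 under median-ratio scaling, 1 with the replicate block, and 0 to 7 over the libraries left out. Of all 9255 genes, the block called 36 higher and 16 lower. Over the libraries left out, 3 to 179 genes were called higher and 1 to 240 lower.

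Same-numbered libraries deviated from their group means with correlations of -0.038, 0.08 and 0.068 in liver and 0.587, 0.092 and 0.35 in skin. With 3 libraries a group these values do not decide whether the replicate numbers pair the libraries, and the block was not used in the main fits. In skin, 288 of 13767 genes had an unadjusted limma p under 0.05 without the block and 716 with it. The replicate numbers are those of the sample titles. The library names number some libraries otherwise, and the skin CCl4 replicate 3 and vehicle replicate 2, which share a library number, had a correlation of -0.185. With the replicate block 51 enzymes were called lower and 0 higher in liver, 60 and 5 of the other pathway genes, 20 and 3 enzymes in rescaled TPM, 7 and 7 relative to the enzymes' mean, and 0 in skin. Of all genes, that block called 5347 of 10385 lower and 1146 higher in liver. The counts were 410 and 6650 of 10362 in rescaled TPM, and 130 and 7952 of 10385 relative to the enzymes' mean. Skin libraries correlated best with their own number for 2 of 3. TPM gives no depth, so precision rests on 3 libraries a group.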

Other observations

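Of the other pathway genes 11 were not tested in liver because they were too low. Enzymes of serine and mitochondrial folate metabolism among them, picked after their values were seen, are given as values. Phgdh, the first enzyme of serine synthesis, was at 0, 0.03 and 0 TPM with vehicle and 1.85, 0.92 and 2.11 TPM with CCl4. Aldh1l2, the mitochondrial formyltetrahydrofolate dehydrogenase, was at 0.03, 0 and 0.02 TPM with vehicle and 0.71, 0.28 and 1.36 TPM with CCl4. Mthfd1l, a mitochondrial formyltetrahydrofolate synthetase, was at 0.14, 0.17 and 0.21 TPM with vehicle and 0.43, 0.54 and 0.43 TPM with CCl4. Mthfd2, the mitochondrial methylenetetrahydrofolate dehydrogenase, was at 0.34, 0.91 and 0.22 TPM with vehicle and 1.34, 0.84 and 1.36 TPM with CCl4. The groups overlapped for Mthfd2 and lay apart for Phgdh, Aldh1l2 and Mthfd1l. Of the genes tested in liver, 11.4% lay apart with higher values in CCl4 in deposited TPM, and 71.5% in rescaled TPM. These values are a description of genes too low to be tested. Ido1, the tryptophan dioxygenase of immune cells, was listed at 0 in 5 of the 6 liver libraries and at 0.03 TPM in CCl4 replicate 2, and Bcat1, the cytosolic branched-chain aminotransferase, reached at most 0.03 TPM.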
